A study of Mus musculus with 8 samples.

Results

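The miR-206 and miR-133b hairpins lie next to each other on mouse chromosome 1, and their mature arms are 4 of the 1755 miRs in the count table: mmu-miR-206-3p, mmu-miR-206-5p, mmu-miR-133b-3p and mmu-miR-133b-5p. They were taken by name, with both arms of each hairpin, and all 4 passed the filter on low counts, as did 1569 miRs in all. The counts came from small RNA of extracellular vesicles (EVs), the membrane vesicles that cells release, obtained from skeletal muscle of male C57BL/6J mice bought at 10–12 weeks of age. OXI-EV came from oxidative muscle, which was the whole soleus joined with the red part of the gastrocnemius, and GLY-EV came from glycolytic muscle, which was the whole quadriceps. The mice carried no engineered allele and received no agent, and in both groups the muscle of a single leg was kept in serum-free medium for 24 h before the EVs were collected. Each group had 4 libraries, 1 per unpooled preparation. Whole muscles also hold cells other than fibres, and EVs of all of them can enter the medium.

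Both hairpins give myomiRs, the miRs that striated muscle holds at high levels. miR-206 is made in skeletal muscle and not in heart, belongs to the miR-1 family, is switched on by MyoD and myogenin during differentiation, and is known in rodents for its high level in the slow soleus and for its role in reinnervation. miR-133b belongs to the miR-133 family, whose best-known target is serum response factor, and its paralog miR-133a is made from other loci together with miR-1a. The locus also gives a long noncoding RNA of differentiating muscle known as linc-MD1. A hairpin is cut by Drosha and Dicer into a 5p and a 3p arm, and Argonaute usually keeps the arm with the less stable 5′ end while the other is degraded.

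The mature sequences show which arms could be told apart by their reads. They are printed 5′ to 3′ from RefSeq (GRCm38.p6) with the seed, bases 2 to 8, in capitals.
mmu-miR-206-5p: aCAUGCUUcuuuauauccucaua
mmu-miR-206-3p: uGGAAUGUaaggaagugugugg
mmu-miR-133b-5p: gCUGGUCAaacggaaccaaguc
mmu-miR-133b-3p: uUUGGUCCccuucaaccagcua
mmu-miR-1a-1-5p: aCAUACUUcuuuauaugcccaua
The 4 arms of the locus lie on the plus strand at chr1:20679017-20679039, chr1:20679055-20679076, chr1:20682797-20682818 and chr1:20682834-20682855, in the order printed. No seed was shared between them. The last sequence is the 5p arm of a miR-1a hairpin (plus strand, chr2:180389057-180389079), shown because it is close to miR-206-5p: counted from the 5′ end, the differences were G5A, C17G and U19C, of which G5A lies in the seed. Of 1526 mature sequences of the table matched to RefSeq by name, a set without miR-1a-3p and miR-133a-3p, 2 others, miR-6349 and miR-6382, shared the seed of miR-206-3p, and none shared the seed of the other 3 arms.

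The hairpins are printed below with the mature arms in capitals, to show that each pair of arms comes out of a single precursor.
Mir206: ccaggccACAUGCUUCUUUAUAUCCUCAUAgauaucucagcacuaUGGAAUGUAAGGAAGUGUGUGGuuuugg
Mir133b: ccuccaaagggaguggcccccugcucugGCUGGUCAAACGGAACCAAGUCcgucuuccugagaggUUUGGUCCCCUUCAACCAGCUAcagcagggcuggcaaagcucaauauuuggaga
Mir206 (73 bases, chr1:20679010-20679082) and Mir133b (119 bases, chr1:20682769-20682887) were separated by 3686 bases. GENCODE release M21 places both within the lincRNA gene Gm28653 (ENSMUSG00000099906.2, chr1:20669882-20684298, plus strand). In the 3-exon transcript Gm28653-202, Mir206 lies in intron 2 (chr1:20671105-20682712) and Mir133b in exon 3 (chr1:20682713-20682958). In the single-exon transcript Gm28653-201 (chr1:20679023-20684298), Mir133b lies within the exon and Mir206 only partly so. A precursor RNA that spans the locus would therefore hold both hairpins.

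Summed miR counts ranged from 348730 to 572106 over the OXI-EV libraries and from 587068 to 1004011 over the GLY-EV libraries, and mapped reads from 4151145 to 4867396 and from 5179262 to 7197716. Levels are given as CPM, counts per 1000000 mapped reads. GLY-EV replicate 4 stood apart, with 194 miR counts per 1000 mapped reads against 74.7 to 118 in the other 7 libraries. It also had the fewest miR reads per miR count, 2.63, against 3.14 (OXI-EV replicate 4) to 4.94 (GLY-EV replicate 2) in the others. CPM divides counts by mapped reads, so fewer reads per count go with a higher CPM. The part of this in the levels below was not tested. Muscle fibre miRs, a list of 8 that includes 2 of the locus, summed to between 52255 and 84674 CPM for OXI-EV. For GLY-EV the sum was between 65949 and 124593 CPM. As a sum, muscle markers were thus abundant in every library. Most of each sum was miR-206-3p and miR-1a-3p, which differed between the groups in opposite directions. Their means were 42812 and 21823 CPM for OXI-EV and 7154 and 70278 CPM for GLY-EV.

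The 3p arms of the 2 hairpins did not move together, and the arms of miR-133b had fold changes of opposite sign. The same signs were seen in 31 of the 68 hairpins with an abundant major and a rare minor arm, miR-133b among them. miR-206-3p was 5.98-fold higher in OXI-EV and was the most abundant miR there. miR-133b-3p was 6.43-fold lower in OXI-EV, like miR-133a-3p of other loci. The counts of miR-133b-3p may hold reads of that near-identical paralog, and the part of such reads was not tested. Both 5p arms were rare, with 4 to 43 counts per library, and their mean CPM was 2.37-fold (miR-206-5p) and 2.99-fold (miR-133b-5p) higher in OXI-EV without passing the test. In edgeR's quasi-likelihood test with Benjamini-Hochberg adjustment over the 1569 miRs tested, 1 of the 4 arms was higher in OXI-EV, where 0.0637% of all miRs tested were called in that direction, and 1 was lower, where 1.78% were. Most miRs tested are rare. With a minimum of 100 counts in 4 libraries, 116 miRs were tested. Of these, 5 were called higher, miR-206-3p among them, and 64 lower, miR-133b-3p among them.

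**Figure D1:**
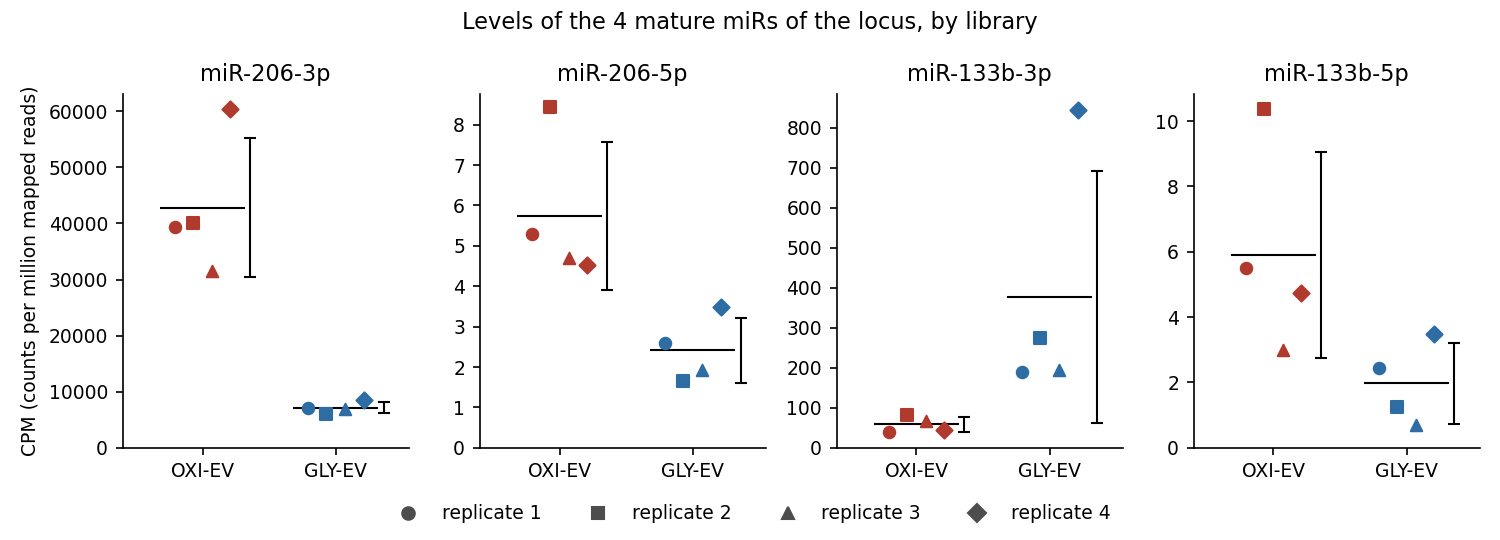
Level of each mature miR of the locus in the 4 OXI-EV and 4 GLY-EV libraries, in CPM on a linear axis from 0 that differs between panels. Symbols are libraries, the horizontal line is the mean and the bar beside it is 1 SD either way. The groups are apart for both miR-206 arms and for miR-133b-3p and overlap for miR-133b-5p, and GLY-EV replicate 4 is far above the others for miR-133b-3p (846 CPM).

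miR-206-3p, the arm that carries the miR-1 family seed, was counted 170871, 166080, 147188 and 294185 times in OXI-EV replicates 1 to 4. In GLY-EV replicates 1 to 4 it was counted 49057, 43672, 40036 and 43744 times. All OXI-EV libraries were thus above all GLY-EV libraries, with OXI-EV replicate 4 the highest. On the CPM scale the level was 42812 ± 12365 for OXI-EV against 7154 ± 979 for GLY-EV (SD, n = 4 each). The log2 fold change, OXI-EV minus GLY-EV, was 2.58 (SE 0.20, edgeR adjusted p = 1.93e-05), the smallest p of all miRs tested. It remained past the threshold without each library in turn, at 2.37 to 2.70 on the log2 scale.

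This arm took the first place among OXI-EV miRs. miR-206-3p ranked 1 by count in every OXI-EV library and 3 in every GLY-EV library. It made up 46.7%, 41.8%, 42.2% and 51.4% of the miR counts of OXI-EV replicates 1 to 4, against 6.06%, 5.62%, 6.82% and 4.36% of those of GLY-EV replicates 1 to 4. The shares did not overlap, and their means, 45.5% ± 4.51 and 5.72% ± 1.03 (SD, n = 4 each), differed by 39.8 percentage points (exact permutation test, two-sided, p = 0.0286, adjusted p = 0.0381). In all, 8 within-library measures of the locus were tested in this way, and adjusted p-values cover all 8. The p of 0.0286 is the smallest that 4 against 4 libraries allow.

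miR-133b-3p, the arm with the miR-133 seed, was counted 172, 342, 314 and 219 times in OXI-EV replicates 1 to 4. In GLY-EV replicates 1 to 4 it was counted 1318, 1981, 1108 and 4381 times. Every GLY-EV library was thus above every OXI-EV library, and the GLY-EV spread was set mainly by replicate 4. Its level was 58.5 ± 19.9 CPM for OXI-EV against 376 ± 315 CPM for GLY-EV (SD, n = 4 each). The log2 fold change was -2.68 (SE 0.55, edgeR adjusted p = 0.0301). Without GLY-EV replicate 4 it was -1.91 (adjusted p = 0.0326).

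The call for miR-133b-3p was close to the threshold. It was lost without OXI-EV replicate 1 (adjusted p = 0.084), replicate 2 (0.0503) or replicate 3 (0.0543) and without GLY-EV replicate 2 (0.0745), while the edgeR log2 fold change stayed between -2.90 and -1.91 over all 8 omissions. By rank this arm came 28 to 70 among OXI-EV miRs and 20 to 26 among GLY-EV miRs. Its share of miR counts was 0.0653% ± 0.0265 for OXI-EV against 0.261% ± 0.123 for GLY-EV (SD, n = 4 each), which did not overlap (exact permutation p = 0.0286, adjusted p = 0.0381).

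The 5p arms, usually called the passenger arms of these hairpins, were rare in both groups. By count miR-206-5p ranked 493 to 1020 among OXI-EV miRs and 907 to 1231 among GLY-EV miRs. For miR-133b-5p the ranks were 478 to 1126 and 1068 to 1554. Their mean counts over the 8 libraries, 20.1 and 19.0, were near the 16.4 of the cardiac miR-208a-3p. How much of such low counts is background was not tested. miR-206-5p was counted 23, 35, 22 and 22 times in OXI-EV replicates 1 to 4 and 18, 12, 11 and 18 times in GLY-EV replicates 1 to 4. No OXI-EV count was as low as a GLY-EV count, but the 95% Poisson intervals, which cover counting error only, overlapped, being 13.8–33.3 for a count of 22 and 10.7–28.4 for a count of 18. miR-133b-5p was counted 24, 43, 14 and 23 times in the OXI-EV libraries, in the same order, and 17, 9, 4 and 18 times in those of GLY-EV. Here OXI-EV replicate 3 lay below GLY-EV replicates 1 and 4, so the groups overlapped. The CPM of miR-206-5p was 5.74 ± 1.83 for OXI-EV against 2.42 ± 0.808 for GLY-EV, and miR-133b-5p had 5.90 ± 3.15 against 1.97 ± 1.24 (SD, n = 4 each).

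Neither 5p arm passed the test. For miR-206-5p the log2 fold change was 1.24 (SE 0.47) and for miR-133b-5p 1.58 (SE 0.60), and both had an edgeR p of 0.0206 before adjustment and an adjusted p of 0.263. At an unadjusted p under 0.05, 3 of the 4 arms were higher in OXI-EV, among 9.05% of all miRs tested. Groups did not overlap in CPM for 3 of the 4 arms, miR-133b-5p being the exception, against 8.22% of all miRs tested.

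Rare miRs as a class had positive fold changes on this scale. The median log2 fold change was 0.52 over the 1440 miRs with a mean count under 100, -1.12 over the 129 with a mean count of at least 100, and 0.48 over all. In the rare class, 131 miRs had a log2 fold change at least as high as that of miR-133b-5p. The 5p arms thus lay within the cloud of rare miRs. Of the 129 abundant miRs, 3, miR-206-3p among them, had all OXI-EV libraries above all GLY-EV libraries, and 57 had the reverse.

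**Figure D2:**
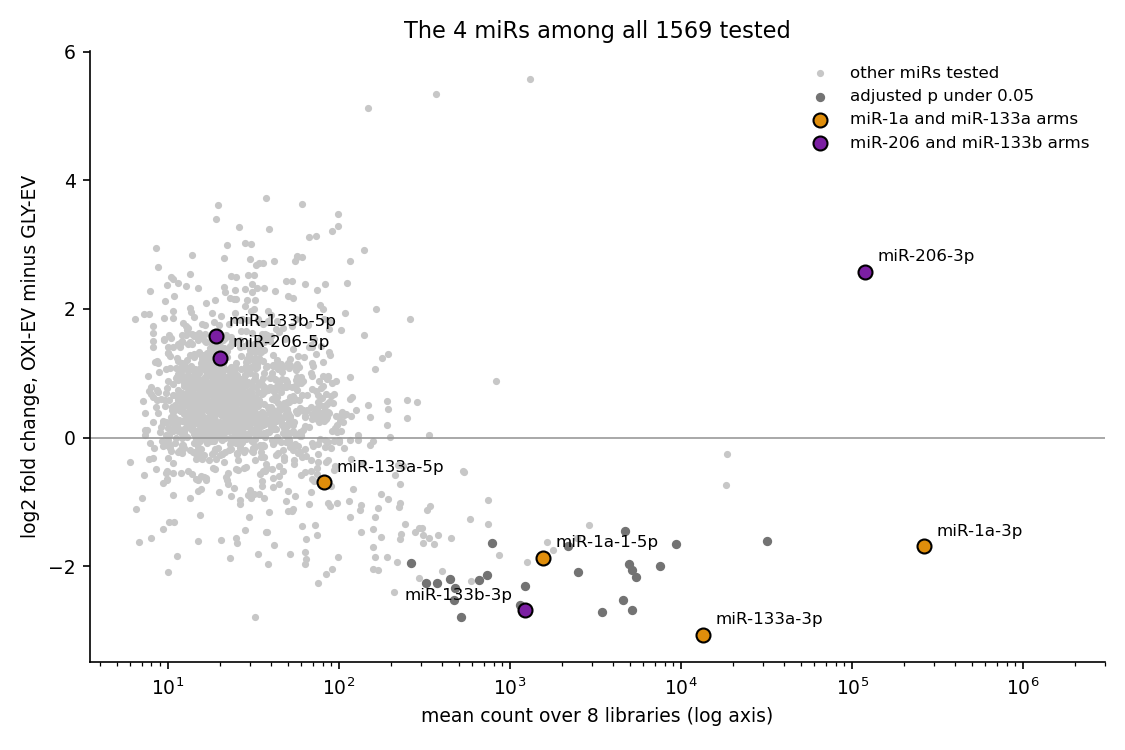
Log2 fold change (OXI-EV minus GLY-EV, edgeR, mapped reads) against the mean count over the 8 libraries on a log axis, for the 1569 miRs tested. Purple points are the arms of the locus, orange points arms of miR-1a and miR-133a, and dark grey points other miRs with an adjusted p under 0.05. miR-206-3p (2.58) is the only called point above 0, miR-133b-3p (-2.68) lies beside miR-133a-3p (-3.06), and both 5p arms lie among the rare miRs.

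The size of each fold change depended on what the libraries were scaled to, while its sign did not over the 6 scales tried. Over all miRs tested, the median log2 fold change ran from 0.09 (TMM, the trimmed mean of M-values) to 1.36 (summed miR counts less the counts of miR-206-3p and miR-1a-3p). Relative to that median, the log2 fold change of miR-206-3p was 2.00 to 2.10, of miR-206-5p 0.73 to 0.77, of miR-133b-3p -3.18 to -2.96 and of miR-133b-5p 1.05 to 1.13. A change of library size shifts all miRs of a library alike. Values less the median were therefore bound to be nearly the same on each scale, and they are no separate test of the result. Both 5p arms passed the threshold on the 2 scales made from summed miR counts, at 1.75 (edgeR adjusted p = 0.0291) for miR-206-5p and 2.11 (adjusted p = 0.0355) for miR-133b-5p when all miR counts were summed. On that scale 188 of the 236 miRs called were higher in OXI-EV.

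**Figure D3:**
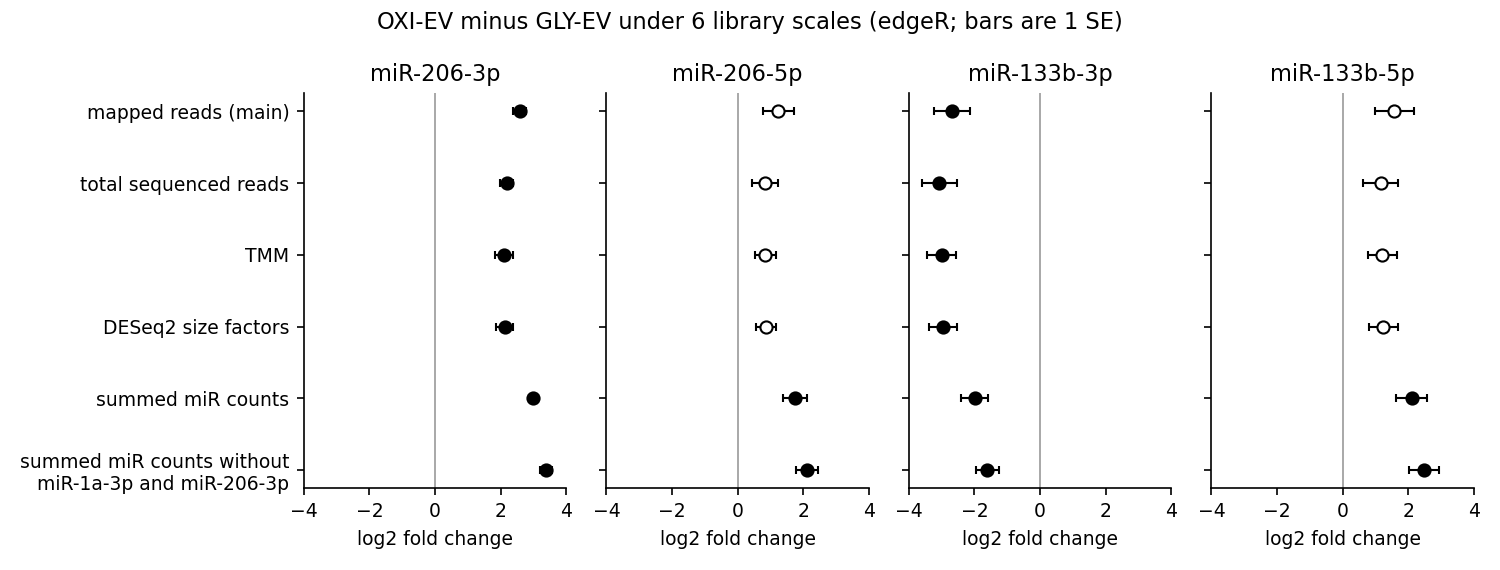
Log2 fold change of each arm (OXI-EV minus GLY-EV, edgeR) under 6 choices of library size, with bars of 1 SE. Filled symbols have an adjusted p under 0.05. All 6 values are above 0 for miR-206-3p, miR-206-5p and miR-133b-5p and below 0 for miR-133b-3p, and the 5p arms are filled only for the 2 scales from summed miR counts.

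Ratios of counts within a library do not depend on that scale. The ratio of the 3p arms, miR-206-3p over miR-133b-3p, was 993, 486, 469 and 1343 in OXI-EV replicates 1 to 4 and 37.2, 22.0, 36.1 and 9.98 in GLY-EV replicates 1 to 4. No GLY-EV library came near the OXI-EV range. The geometric means, 742 and 23.3, were 31.8-fold apart (difference of mean log2 ratios 4.99, exact two-sided permutation p = 0.0286, adjusted p = 0.0381). The ratio of the 5p arms, miR-206-5p over miR-133b-5p, was instead near 1 in both groups, at 0.814 to 1.57 for OXI-EV and 1.00 to 2.75 for GLY-EV. It differed by -0.40 on the log2 scale (exact permutation p = 0.343, adjusted p = 0.392), and the interval of that difference, the shifts not refused at 0.05 by the same test, was -1.64 to 0.62. The 2 hairpins thus differed between the groups in the counts of their 3p arms, with no difference detected in the ratio of their 5p arms at these depths. Both 5p arms had counts near those of the cardiac miR-208a-3p. Their ratio therefore cannot show whether the 2 hairpins changed alike. The counts of miR-133b-3p may hold reads of its near-identical paralog miR-133a-3p, which was not tested.

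**Figure D4:**
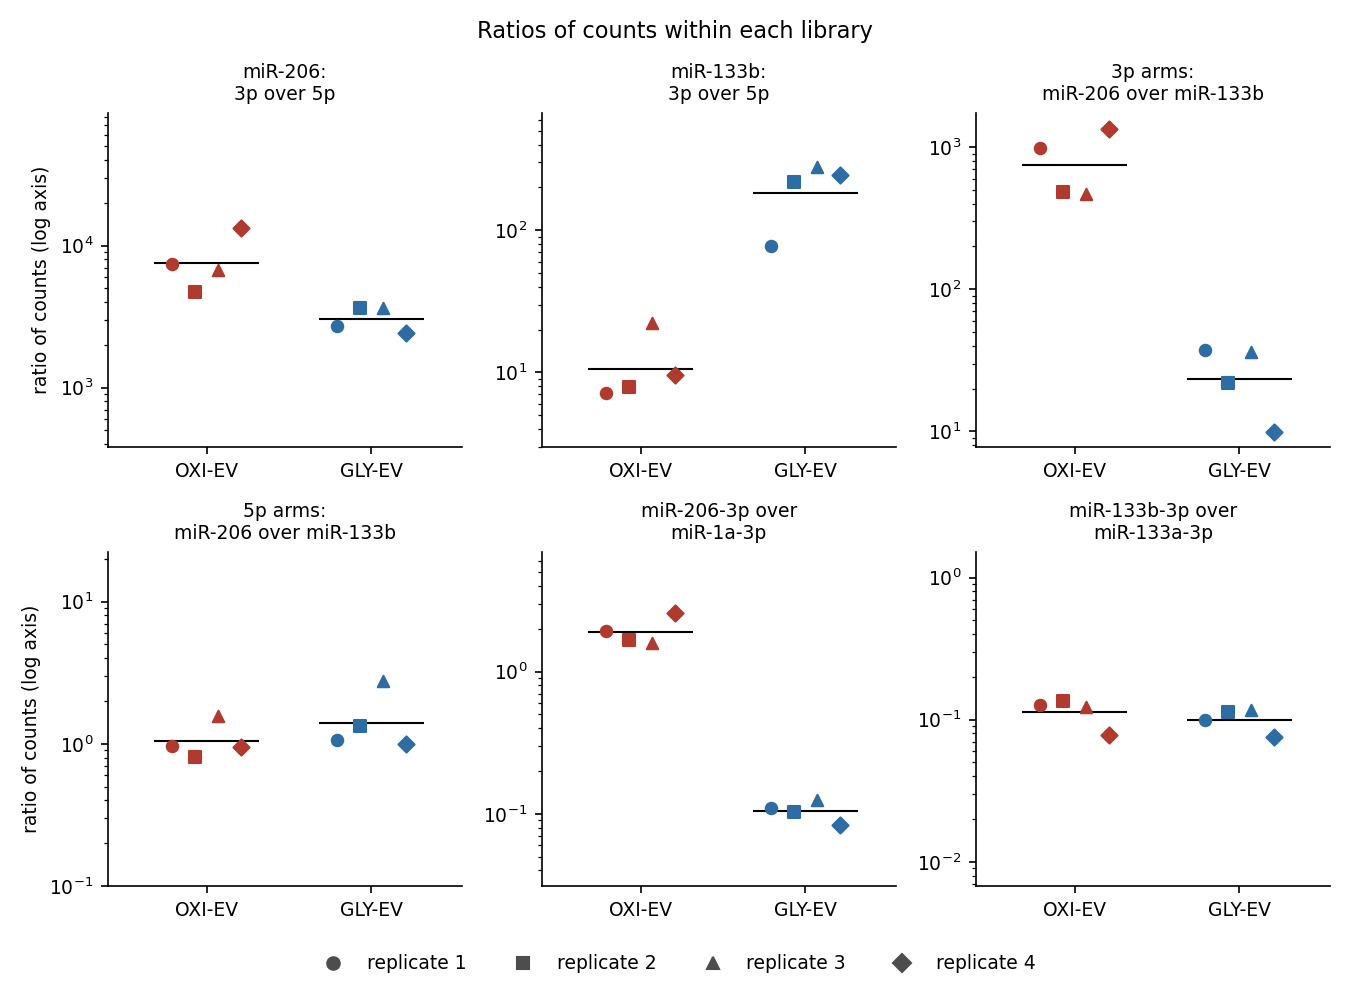
Ratios of raw counts within each library on log axes, each spanning the same number of decades, with symbols for libraries and lines for geometric means. Groups are apart for both arm ratios, for the ratio of the 3p arms and for miR-206-3p over miR-1a-3p, and overlap for the ratio of the 5p arms (0.814 to 2.75 over all 8 libraries) and for miR-133b-3p over miR-133a-3p.

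In the counts assigned to miR-133b the balance of the arms differed between the groups. The 3p counts may hold reads of the near-identical and more abundant miR-133a-3p, and the part of such reads was not tested. The count of the 3p arm over that of the 5p arm was 7.17, 7.95, 22.4 and 9.52 in OXI-EV replicates 1 to 4 and 77.5, 220, 277 and 243 in GLY-EV replicates 1 to 4. The lowest GLY-EV ratio was above the highest OXI-EV ratio. The geometric means of 10.5 and 184 were 17.5-fold apart, and the difference of mean log2 ratios was -4.08 (exact two-sided permutation p = 0.0286, adjusted p = 0.0381, interval -5.10 to -1.83). Put as a share, the 5p arm made up 12.2%, 11.2%, 4.27% and 9.50% of miR-133b counts in the OXI-EV libraries against 1.27%, 0.452%, 0.360% and 0.409% in GLY-EV. Even the lowest OXI-EV share, with a 95% Wilson interval of 2.56–7.04% that covers counting error only, lay above the highest GLY-EV share, with an interval of 0.797–2.03%.

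Within miR-206 the 3p arm far outnumbered the 5p arm in every library. The ratio was 7429, 4745, 6690 and 13372 in OXI-EV replicates 1 to 4 and 2725, 3639, 3640 and 2430 in GLY-EV replicates 1 to 4. The groups did not overlap, in the opposite direction to miR-133b. Both arm ratios rest on the low 5p counts, whose background was not tested. The geometric means of 7494 and 3060 were 2.45-fold apart (difference of mean log2 ratios 1.31, exact permutation p = 0.0286, adjusted p = 0.0381, interval 0.44 to 2.44). As a share of miR-206 counts, the 5p arm was 0.0142% ± 0.0056 for OXI-EV against 0.0332% ± 0.0068 for GLY-EV (SD, n = 4 each).

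Arm ratios that differed were not confined to this locus. Of 511 hairpins with both arms tested, 10.8% had arm ratios that did not overlap between the groups. Of the 68 with a major arm at a mean count of at least 100 and a minor arm under 100, as in both hairpins here, 26 had ratios that did not overlap, and 31 had a major arm with a negative and a minor arm with a positive log2 fold change, as miR-133b had. The median difference, major minus minor arm, was -1.21 on the log2 scale over these 68. It was -4.26 for miR-133b, where only miR-27a was lower (-5.50), and 1.34 for miR-206. This comparison over hairpins was added after the values of the locus had been seen, and the differences carry no test.

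**Figure D5:**
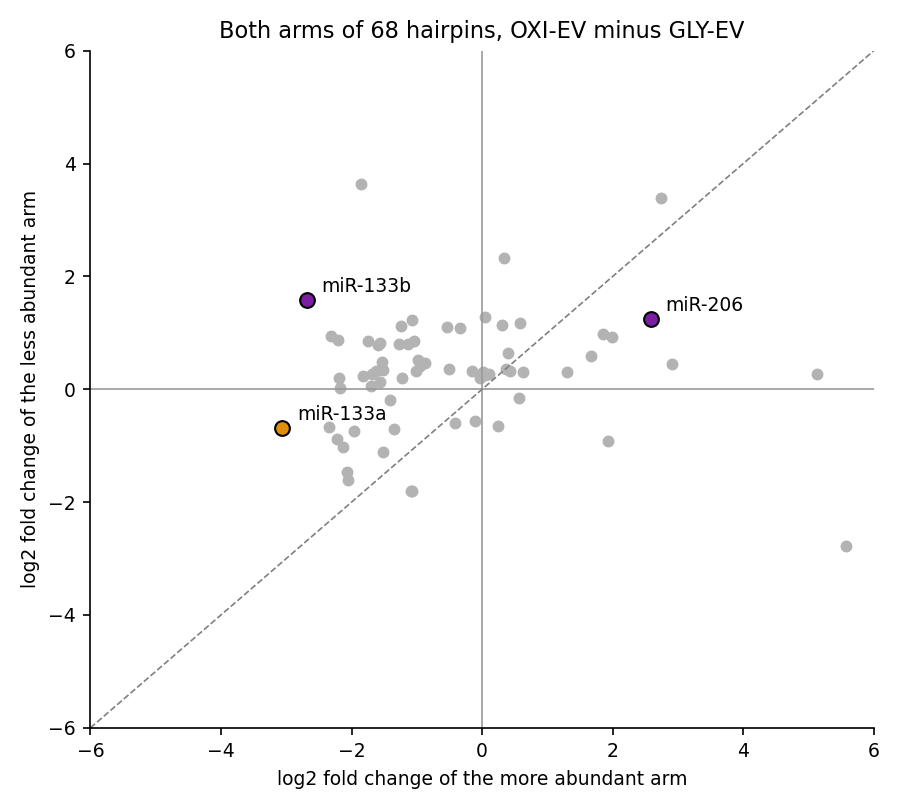
Log2 fold change (OXI-EV minus GLY-EV, edgeR) of the less abundant arm against that of the more abundant arm, for the 68 hairpins with a major arm at a mean count of at least 100 and a minor arm under 100. On the dashed line both arms change alike. miR-133b (-2.68 and 1.58) lies among the 31 hairpins of the upper left, miR-133a (-3.06 and -0.69) in the lower left and miR-206 (2.58 and 1.24) in the upper right.

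miR-133b-3p moved with its paralog. Its count was 12.7%, 13.5%, 12.2% and 7.84% of that of miR-133a-3p in OXI-EV replicates 1 to 4 and 9.88%, 11.4%, 11.8% and 7.61% in GLY-EV replicates 1 to 4. The groups overlapped, and replicate 4 was the lowest of each. The difference of mean log2 ratios was 0.18 (exact permutation p = 0.429, adjusted p = 0.429, interval -0.58 to 0.82), beside log2 fold changes of -2.68 for miR-133b-3p and -3.06 (SE 0.58, edgeR adjusted p = 0.0163) for miR-133a-3p. These 2 mature miRs are nearly identical in sequence, and how reads that match both were counted is not given in the sources used here. The split between them is therefore uncertain, and its part in this ratio was not tested. The same limit holds for the fold change of miR-133b-3p, the arm ratio of miR-133b and the ratio of the 3p arms.

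miR-206-3p did not move with its paralog. Its count was 1.94, 1.67, 1.59 and 2.60 times that of miR-1a-3p, the main myomiR of all striated muscle, in OXI-EV replicates 1 to 4. In GLY-EV replicates 1 to 4 it was 0.110, 0.103, 0.126 and 0.0831 times. The geometric means were 18.4-fold apart (difference of mean log2 ratios 4.20, exact permutation p = 0.0286, adjusted p = 0.0381, interval 3.67 to 4.96). Of the counts of miR-206-3p and miR-1a-3p together, miR-206-3p held 65.5% ± 4.86 for OXI-EV against 9.51% ± 1.45 for GLY-EV (SD, n = 4 each), while miR-133b-3p held 10.3% ± 2.07 and 9.21% ± 1.57 of the counts of the miR-133 pair. The order of the pair was thus turned round between the groups for miR-206 and miR-1a, and kept for miR-133b and miR-133a.

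For the 5p arms the picture by paralog was different for miR-133b, while for miR-206 the groups were apart in the same direction as for the 3p arms. These ratios were chosen after their values had been seen and are given with no test. miR-133b-5p was counted 0.241 to 0.915 times as often as miR-133a-5p among OXI-EV libraries and 0.0625 to 0.181 times as often among GLY-EV libraries, so this ratio did not overlap although that of the 3p arms did. miR-206-5p was 4.04% to 7.34% of miR-1a-1-5p for OXI-EV against 0.372% to 0.809% for GLY-EV. The arm ratio of miR-133a, 3p over 5p, was 37.3 to 54.1 for OXI-EV against 142 to 305 for GLY-EV, which did not overlap either, whereas miR-1a-3p over miR-1a-1-5p overlapped, at 156 to 245 and 132 to 237. Both miR-133 hairpins thus had relatively more 5p arm in OXI-EV. A shift towards the rare arm was common in these data. Its median, major minus minor arm, was -1.21 on the log2 scale over the 68 hairpins with an abundant major and a rare minor arm. Of these, 26 had ratios that did not overlap. The ratio of miR-206-5p to miR-1a-1-5p also sets a rare miR (mean count 20.1) against an abundant one (1562). Rare miRs as a class had a median log2 fold change of 0.52, against -1.12 for abundant ones.

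The relatives fell where they changed. Of the 7 arms of miR-1a, miR-1b and miR-133a in the table, 6 were tested, 4 were lower in OXI-EV, none was higher and 2 did not pass, against 1.78% of all miRs tested that were lower. Their median log2 fold change was -1.64, against 0.48 over all miRs tested and -1.12 over the 129 with a mean count of at least 100, the class of the 4 that were lower. With a minimum of 100 counts in 4 libraries, 64 of the 116 miRs tested were called lower, these 4 among them. miR-1a-3p fell by 1.69 on the log2 scale (SE 0.18, edgeR adjusted p = 0.000261) and miR-1a-1-5p by 1.87 (SE 0.33, adjusted p = 0.0111). miR-1b-5p fell by 1.60 (adjusted p = 0.000261), and miR-133a-5p was at -0.69 (adjusted p = 0.54). On mapped reads miR-206-3p was thus the only tested arm of the miR-1 and miR-133 families that passed the test as higher in OXI-EV. The count of 4 lower was the same on all 6 scales. On the scale of summed miR counts less the top pair, 1 relative was called higher, as were 911 of all 1569 miRs tested. Without OXI-EV replicate 2 or 3, 3 relatives were called lower.

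Among the other myomiRs, a list of 5, 2 were lower in OXI-EV and 3 did not pass, against 1.78% of all miRs tested that were lower. Both of the 2 are abundant. With a minimum of 100 counts in 4 libraries, 64 of the 116 miRs tested were called lower, these 2 among them. Their median log2 fold change was 0.64, close to the 0.48 over all miRs tested. The 2 were miR-486a-5p (-2.61, edgeR adjusted p = 0.00359) and miR-486b-5p (-2.52, adjusted p = 0.00178), which come from an intron of the erythroid and muscle gene Ank1. miR-499-5p and miR-208b-3p, which lie within the slow myosin genes Myh7b and Myh7, were at 2.20 (SE 1.06, adjusted p = 0.354) and 1.58 (SE 0.60, adjusted p = 0.263). Both are rare, and 1230 of the 1569 miRs tested had a positive log2 fold change. miR-208a-3p, the cardiac member within Myh6, was at 0.64 (adjusted p = 0.592).

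The pattern over the 8 libraries was also compared with that of every miR with a mean count of at least 100, as the root mean square difference of log2 CPM after each miR's own mean was taken away. For miR-133b-3p, 128 miRs were compared, and the nearest were miR-133a-3p (0.29), miR-26a-5p (0.35), miR-181a-5p (0.37), miR-486b-5p (0.41) and miR-127-3p (0.42). All 5 were lower in OXI-EV, which follows from choosing them by likeness to a miR that was lower. The nearest to miR-206-3p were miR-203-3p (0.81), miR-2137 (0.86), miR-138-5p (0.89), miR-5126 (0.94) and miR-2183 (0.99). These distances were larger. None of the 5 passed the test, but miR-206-3p was the only miR called higher on this scale, so no other miR that rose could have passed. Within the locus the closest pair was that of the 5p arms (0.42), followed by miR-206-3p with miR-206-5p (0.79) and with miR-133b-5p (0.81). miR-133b-3p was the odd member, at 2.07 from its own 5p arm and 2.59 from miR-206-3p.

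Markers of some other cell types differed between the groups too. Summed CPM of the smooth muscle list (3 miRs) were 267 to 505 for OXI-EV against 783 to 2039 for GLY-EV, of the fibroblast and mesenchymal list (3 miRs) 112 to 222 against 529 to 1232, and of the endothelial list (2 miRs) 53.1 to 198 against 201 to 772. These 3 lists were lower in every OXI-EV library, as miR-133b-3p was, the endothelial list only narrowly. The same held for 57 of the 129 miRs with a mean count of at least 100. The satellite cell list (2 miRs), for the cells from which fibres regenerate, summed to between 6.44 and 10.1 CPM for OXI-EV and between 1.23 and 7.53 CPM for GLY-EV, overlapping. The erythroid (3 miRs), leukocyte (5), neural (2) and liver (1) lists overlapped between the groups as well, and no listed marker was at 0 in all libraries. The part of these cells in the results for the locus was not tested, and fewer EVs of a cell type cannot be told apart from less miR per EV.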

How the data were processed

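The authors sequenced EV small RNA of 4 OXI-EV and 4 GLY-EV preparations, from 3–8 ng of RNA per library, with a kit that tags molecules with unique identifiers (UMIs). The deposited counts are whole, unnormalized numbers per miR and library. The submitters' processing notes name cutadapt, STAR and GRCm38, without versions, and the counting tool and the treatment of reads matching several miRs are likewise not given in the sources used here. miR reads exceeded miR counts 2.63 to 4.94 times, so the counts appear to be molecules, and CPM here divides them by mapped reads. The authors' fold change, p and FDR columns were not used.

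The 1569 miRs that reached 10 counts in 4 or more libraries were tested with edgeR 4.0.16 (quasi-likelihood, R 4.3.3), with mapped reads as library size, no further factor and no block, at an adjusted threshold of 0.05. The SE was the log2 fold change over the root of the test statistic. Within-library ratios, on log2 counts with a pseudocount of 0.5, were tested by exact two-sided permutation (scipy 1.17.1). The pattern measure used a prior count of 2. Alternatives were other scales and filters, DESeq2 1.42.0, limma-voom (limma 3.58.1), blocks by number and leaving out each library. Scripts were tested on simulated data. Sequences are from RefSeq and positions from GENCODE.

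The miRs named are the 4 arms, their miR-1 and miR-133 relatives, 5 other myomiRs, and the 5 miRs most like each 3p arm. Outside this rule, miR-6349 and miR-6382 are named for a shared seed and miR-27a after its values were seen. Members, lists and tests were chosen with earlier results of these data known. p-values measure the spread between preparations. Muscle came from a single leg of each mouse and EV release was compared by paired tests in the study. Both groups may therefore share mice, but no source says which libraries would pair. The library labels carry preparation numbers, and no source says whether these mark mice.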

Additional observations from a re-analysis of the deposited data

Results flagged for a closer look

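In 4 of 44 sets of 4 values checked, 1 library lay far from the other 3 of its group, where chance gives about 1 in 20. The count of mmu-miR-206-3p in OXI-EV replicate 4 was 294185, and the group's next values were 147188 to 170871. The count of mmu-miR-206-5p in OXI-EV replicate 2 was 35, against 22 to 23 in the others. The level of mmu-miR-133b-3p in GLY-EV replicate 4 was 846 CPM, against 190 to 275 CPM in the others. That library also had the fewest miR reads per miR count (2.63). The ratio of the miR-133b arms, 3p over 5p, in OXI-EV replicate 3 was 22.4, against 7.17 to 9.52 in the others. Each library stayed on its group's side for these measures.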

How the results depend on the processing

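No alternative reversed the sign of any result of the locus. The number of miRs past the threshold, 29, was 86 with TMM and with DESeq2's size factors, 236 with summed miR counts, 953 with those less miR-1a-3p and miR-206-3p, 54 with total sequenced reads, 69 with a minimum of 100 counts in 4 libraries and 80 with DESeq2. Without each library in turn it was 10 to 29. miR-206-3p stayed past the threshold in all 11 alternatives and 8 omissions, and miR-133b-3p in all 11 alternatives and 4 of 8 omissions, with log2 fold changes of -2.90 to -1.91. The 5p arms passed on the scales of summed miR counts (1.75 for miR-206-5p and 2.11 for miR-133b-5p) and of those less miR-1a-3p and miR-206-3p (2.12 and 2.48), and had too few counts for the minimum of 100. With the block by replicate number the number of calls was 42 and the log2 fold change of miR-206-3p 2.55 and of miR-133b-3p -2.40. Library labels also carry preparation numbers. These were 1, 3, 4 and 5 for OXI-EV replicates 1 to 4 and 1, 2, 4 and 5 for those of GLY-EV. Replicate number 2 thus joins preparations 3 and 2. With a block by preparation number the number of calls was 32. The log2 fold change of miR-206-3p was then 2.49 and that of miR-133b-3p -2.65 (edgeR adjusted p = 0.0462). Deviations from the group means, compared by replicate number, correlated at -0.17 to 0.16. Of 4 OXI-EV libraries, 1 correlated best with the GLY-EV library of its own number. With so few libraries this cannot decide whether they pair. In the ratio tests the block by replicate number left the differences as they were and set the adjusted p at 0.125, the smallest p that 4 pairs allow: 1.31 for the miR-206 arms, -4.08 for the miR-133b arms, 4.99 for the 3p arms, 4.20 for miR-206-3p over miR-1a-3p, 39.8 percentage points for the miR-206-3p share and -0.195 for the miR-133b-3p share. The 2 ratios with no difference detected had the same sign in all 4 pairs by replicate number and also came to 0.125: -0.40 for the 5p arms and 0.18 for miR-133b-3p over miR-133a-3p. No ratio test was blocked by preparation number. Without each library the first 6 were 1.04 to 1.53, -4.48 to -3.90, 4.58 to 5.21, 4.05 to 4.29, 37.8 to 41.1 and -0.228 to -0.137, and since 3 against 4 libraries allow no p below 0.0571, those tests cannot pass. Depth limits the 5p arms, whose counts were 4 to 43.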
